A study of Mus musculus with 6 samples.

Results

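The genes described here are 42 genes that run DNA synthesis and mitosis, among them cyclins, cyclin-dependent kinases, replication factors, spindle motors and 4 brakes of the G1 phase. They were chosen by name and leave out the Mcm helicase genes. Of the 42, 41 had a named probe, out of 19057 genes measured. The expression of Ccnb1 was not analysed here, though its promoter was searched. By known function, 19 of the 42 belong to the G1 and S phases (G1/S), 19 to the G2 phase and mitosis (G2/M), and 4 are G1 brakes. Every measured G1/S gene and brake had a probe, as did 18 of the 19 G2/M genes.

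Expression was measured on Illumina arrays in organoids of mouse small intestine, cultures in which crypt epithelium grows as a closed sac with buds. The Snai1 knockout group was 3 samples from mice of the genotype Villin-Cre, Snai1fl/fl, and the control group was 3 samples from Villin-Cre mice. All 6 had been kept in 0.5 µM tamoxifen for 24 hours, so both groups carried the Cre transgene and received the drug. The Villin promoter directs Cre to the intestinal epithelium. The labels do not say whether the 3 samples of a group came from separate animals or cultures, so the p-values refer to sample-to-sample spread that could be purely technical. The brighter Snai1 probe read 7.91 ± 0.05 in knockout and 7.91 ± 0.04 in control organoids (log2, SD, n = 3 each), close to the 7.87 median of all values on the arrays. At that level the loss of Snai1 was not detectable, and the labels were not checked by it.

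Cell division is driven by kinases that act with cyclins. D cyclins with Cdk4 and Cdk6, and then E cyclins with Cdk2, inactivate the retinoblastoma protein Rb1 and release E2F factors, which switch on genes for DNA synthesis. Mitotic genes come on later, together, through a promoter element called the cell cycle genes homology region (CHR) and nearby CCAAT boxes bound by the factor NF-Y. In the intestine, crypt base stem cells and transit-amplifying cells divide, and their progeny leave the cycle as they differentiate. The samples are bulk RNA, so a lower share of dividing cells and less of a transcript per dividing cell cannot be told apart.

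In the windows searched, the promoters of the 2 classes differed in these elements. They were searched on both strands, from 250 bases before to 50 after 1 listed start per gene (RefSeq, GRCm38.p6). In 11 of the 31 members compared, that start lay inside the gene's annotated span, so other starts of these genes were not searched. It lay over 100 bases inside in 5, namely Cdk6, Hells, E2f1 and Cdc6 of G1/S and Aurka of G2/M. This limit thus fell mostly on G1/S genes, and its part in the contrast between the classes was not tested. A promoter was matched for 15 of the 19 G1/S genes and 15 of the 19 G2/M genes, Ccnb1 among the latter. The CHR, searched as TTTGAA or TTCGAA, was found in 12 of the 15 G2/M promoters (80.0%) and in 0 of the 15 G1/S promoters, against 19.4% of all 27025 promoters. CCAAT was found in 14 G2/M promoters (93.3%), in 5 G1/S promoters (33.3%) and in 37.9% of all promoters. An E2F site, searched as TTTCCCGC, TTTCGCGC, TTTGCCGC or TTTGGCGC, was found in 1 G2/M promoter (6.7%), in 4 G1/S promoters (26.7%) and in 2.3% of all promoters. A match is only a run of letters and does not show binding.

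Upstream sequences of 4 members whose start is the outer end of the gene show these elements, with matches in capitals. Each sequence ends at or before the base ahead of the start. Kif11 (chr19:37376262-37376381, plus strand), Ube2c (chr2:164769809-164769928, plus strand) and Cdk1 (chr10:69352913-69353062, minus strand) are G2/M genes in which ATTGG, the CCAAT box on the other strand, precedes TTCAAA or TTTGAA. Cdk2 (chr10:128705122-128705201, minus strand) is a G1/S gene with the E2F letters on the other strand. The searched window of Cdk2 also holds 1 CCAAT match, outside the stretch shown. Coordinates and sequences are those of RefSeq on GRCm38.p6, and no 2 of the matches shown overlap.
Kif11: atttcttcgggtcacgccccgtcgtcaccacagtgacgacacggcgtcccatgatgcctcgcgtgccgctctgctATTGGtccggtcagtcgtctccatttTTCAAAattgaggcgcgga
Ube2c: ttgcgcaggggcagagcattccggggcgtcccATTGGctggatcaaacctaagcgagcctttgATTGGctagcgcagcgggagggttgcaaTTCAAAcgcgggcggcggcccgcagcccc
Cdk1: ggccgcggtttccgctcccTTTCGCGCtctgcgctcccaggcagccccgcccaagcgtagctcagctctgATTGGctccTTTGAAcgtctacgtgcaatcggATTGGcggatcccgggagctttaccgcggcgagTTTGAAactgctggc
Cdk2: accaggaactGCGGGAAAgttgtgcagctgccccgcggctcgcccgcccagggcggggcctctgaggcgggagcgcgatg
Counted from the start, the CHR letters lie at -19 to -14 in Kif11 and at -29 to -24 in Ube2c. Cdk1 carries the letters of all 3 elements, with its E2F match furthest upstream.

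No member was called higher or lower in the knockout. With limma and Benjamini-Hochberg adjustment over all genes, 0 of the 41 measured members passed an adjusted p of 0.05, where 25 of 19057 genes did (0.131%; 0.0367% higher and 0.0945% lower in the knockout). The lowest adjusted p of a member was 0.59. At an unadjusted p under 0.05 there were 3 members, Tyms and Ube2c lower and Kif11 higher in the knockout, against 7.22% of all genes (3.88% higher and 3.34% lower). In 2 members, Tyms and Kif11, the 3 knockout values lay wholly on one side of the 3 control values, against 12% of all genes (6.2% higher and 5.85% lower). Differences ran from -0.26 for Bub1b to 0.15 for Ccnd1 (knockout minus control, log2), with 21 members higher and 20 lower. Their median was 0.00041, against -0.00057 over all genes, and their median standard error was 0.062.

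**Figure D1:**
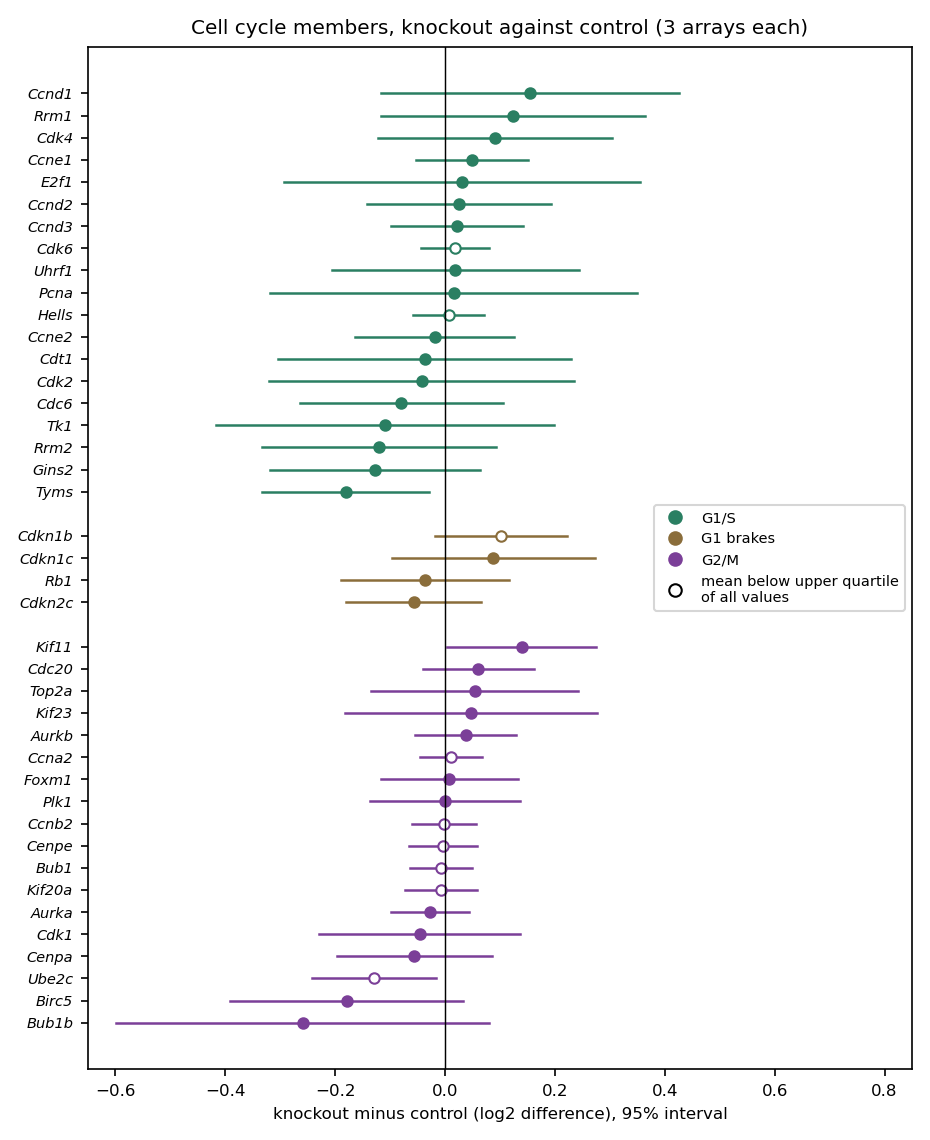
Knockout minus control difference (x axis, log2) of each of the 41 measured members, with its 95% interval from limma, grouped as G1/S, G1 brakes and G2/M. Points lie between -0.26 and 0.15, and the intervals of Tyms, Ube2c and Kif11 alone leave out 0 before adjustment; open points are members whose mean lies below the upper quartile of all values.

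The precision of these differences depends on the number of arrays and on the fit, here one without a block. Values below the upper quartile of all values, 8.27, are compressed towards the bottom of the scale at 7.71, so 9 members with lower means can show little. These were Cdk6, Hells, Cdkn1b, Ccna2, Ccnb2, Bub1, Ube2c, Cenpe and Kif20a, and 5 of them (Hells, Ccnb2, Bub1, Cenpe and Kif20a) lay below the median of all values. For the 32 brighter members, 95% intervals reached from -0.60 (Bub1b) to 0.43 (Ccnd1). Read as folds of base 2, a change of more than 1.51-fold downward or 1.34-fold upward lay outside every one of these 32 intervals. For 31 of the 32 the whole interval lay within 0.5 of 0, and for 15 within 0.25. With the replicate number as a block, the median standard error of the 32 was 0.046 instead of 0.075, so these limits are those of the unblocked fit.

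**Figure D2:**
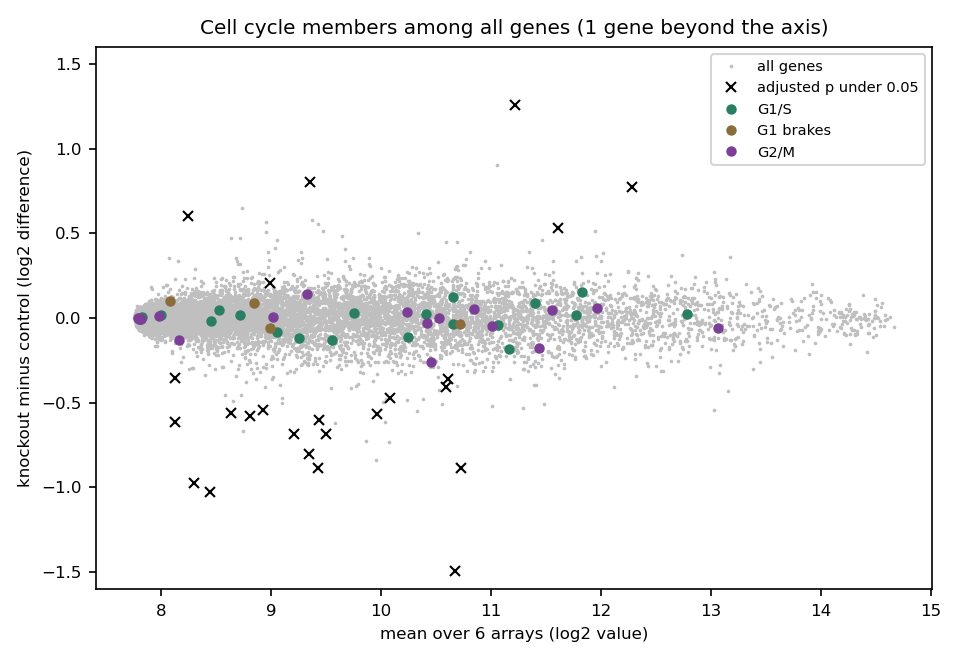
Mean level over the 6 arrays (x axis, log2 value) against the knockout minus control difference (y axis, log2) for all 19057 genes in grey, with crosses for the 25 genes of adjusted p under 0.05 and coloured points for the members. The members lie inside the grey cloud at every level, and 1 gene lies beyond the y axis.

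Among the G1 cyclins and kinases, 6 of 8 had a higher mean in the knockout and none passed. Ccnd1, the D cyclin that Wnt signalling is known to raise in crypts, read 11.75, 12.05 and 11.90 in knockout organoids and 11.61, 11.95 and 11.68 in control organoids. Each knockout array exceeded the control array of its own number, but the groups overlapped. The difference was 0.15 ± 0.11 (SE; adjusted p = 0.89, limma). With the replicate number as a block the standard error was 0.03 (limma adjusted p = 0.20). Ccnd2, a second D cyclin, read 12.76, 12.72 and 12.91 in knockout and 12.85, 12.66 and 12.81 in control organoids. Ccne1, an E cyclin that partners Cdk2, read 8.49, 8.55 and 8.62 in knockout and 8.52, 8.54 and 8.46 in control organoids. Both genes' groups overlapped. Ccnd3, Ccne2, Cdk2, Cdk4 and Cdk6 differed by -0.04 to 0.09.

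E2f1 encodes the transcription factor that switches on S phase genes, Cdc6 and Cdt1 load the replicative helicase at origins, and Gins2 is a subunit of the active helicase. E2f1 differed by 0.03 ± 0.13 (SE), and its replicate 2 stood highest in both groups, at 9.94 in knockout and 10.01 in control organoids. Gins2 read 9.40, 9.52 and 9.54 in knockout and 9.47, 9.75 and 9.63 in control organoids. The knockout array was lower in 3 of 3 pairs, and the groups overlapped (difference -0.13 ± 0.08, SE; limma adjusted p = 0.85, and 0.39 with the block). Cdc6 differed by -0.08 and Cdt1 by -0.04.

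Genes of nucleotide and DNA synthesis had a median difference of -0.11, with 3 of 5 lower. Tyms, which makes thymidylate, read 11.21, 11.01 and 11.01 in knockout organoids and 11.22, 11.31 and 11.23 in control organoids. All knockout values were lower than all control values, though knockout replicate 1 was close to the lowest control array. The difference of -0.18 ± 0.06 (SE) equals 1.13-fold higher expression in control, and limma gave an unadjusted p of 0.027 and an adjusted p of 0.59. Ribonucleotide reductase makes deoxynucleotides from a large subunit, Rrm1, and a small one, Rrm2. Rrm1 read 10.54, 10.93 and 10.67 in knockout and 10.62, 10.57 and 10.58 in control organoids, so its mean was higher by 0.12 ± 0.10 (SE). Rrm2 read 9.03, 9.22 and 9.32 in knockout and 9.41, 9.21 and 9.31 in control organoids, so its mean was lower by 0.12 ± 0.09 (SE). On the brightest probe of each, Rrm1 stood apart on knockout replicate 2 and Rrm2 on knockout replicate 1. Neither gene passed (adjusted p = 0.92 and 0.89, limma). Pcna, the sliding clamp of DNA polymerases, differed by 0.02 ± 0.14 (SE), and the thymidine kinase gene Tk1 by -0.11 ± 0.13 (SE). Uhrf1, which carries DNA methylation through replication, read 11.78 ± 0.14 in knockout and 11.76 ± 0.13 in control organoids (SD, n = 3 each), and the chromatin remodeller gene Hells lay at the bottom of the scale.

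The 4 brakes did not share a direction. Cdkn1b (p27), an inhibitor of cyclin E and Cdk2, read 8.20, 8.06 and 8.15 in knockout and 8.06, 7.96 and 8.08 in control organoids. It was higher in 3 of 3 pairs, by 0.13, 0.10 and 0.07, with overlapping groups (limma adjusted p = 0.77, and 0.26 with the block). Its level was below the upper quartile of all values, and its second probe, likewise dim, differed by -0.03. Cdkn1c (p57), a related inhibitor, read 8.97, 8.86 and 8.83 in knockout and 8.80, 8.93 and 8.66 in control organoids. Cdkn2c (p18), which inhibits Cdk4 and Cdk6, read 8.93, 9.07 and 8.88 in knockout and 9.03, 9.03 and 8.99 in control organoids. Rb1, the target of those kinases, read 10.61, 10.67 and 10.82 in knockout and 10.72, 10.69 and 10.81 in control organoids. The groups of all 3 overlapped, and their adjusted p ran from 0.93 to 0.98 (limma).

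Among the mitotic regulators, Cdk1, the kinase that drives entry into mitosis, differed by -0.05 ± 0.07 (SE), and Foxm1, a transcription factor of mitotic genes, read 9.02 ± 0.08 in knockout and 9.02 ± 0.06 in control organoids (SD, n = 3 each). The cyclin genes Ccna2 and Ccnb2 were dim. Of the kinases, Aurkb, part of the complex that corrects chromosome attachment, read 10.19, 10.30 and 10.28 in knockout and 10.21, 10.19 and 10.26 in control organoids. The groups overlapped, and the difference was 0.04 ± 0.04 (SE). Aurka differed by -0.03 and Plk1 by 0.00041, with an interval for Plk1 of -0.14 to 0.14.

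Birc5 (survivin) works with Aurkb in that complex. It read 11.43, 11.45 and 11.17 in knockout organoids and 11.58, 11.58 and 11.42 in control organoids. The knockout array was lower in 3 of 3 pairs, but knockout replicates 1 and 2 exceeded control replicate 3. The difference was -0.18 ± 0.09 (SE; limma adjusted p = 0.77), with a standard error of 0.03 and an adjusted p of 0.18 in limma's blocked fit. Bub1b, a spindle checkpoint kinase, read 10.04, 10.53 and 10.39 in knockout and 10.61, 10.71 and 10.42 in control organoids. Its difference of -0.26 ± 0.14 (SE; limma adjusted p = 0.81) was the widest among the members and came mostly from replicate 1, where the knockout array was 0.57 lower. The gene's other probe above the upper quartile, ILMN_2985969, differed by 0.0014. On the brighter probe, without knockout replicate 1 the difference was -0.12 (limma adjusted p = 0.85).

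Cdc20 and Ube2c act with the anaphase-promoting complex, which ends mitosis by marking cyclin B for destruction. Cdc20, its activator, read 12.05, 11.98 and 11.94 in knockout and 11.99, 11.92 and 11.88 in control organoids. The knockout array was higher by 0.06 in each of the 3 pairs, less than the range within either group (limma adjusted p = 0.89, and 0.45 with the block). Ube2c, its ubiquitin-conjugating enzyme, read 8.06, 8.08 and 8.18 in knockout and 8.18, 8.22 and 8.30 in control organoids. It was lower in 3 of 3 pairs, and only knockout replicate 3 reached the lowest control value. The difference was -0.13 ± 0.05 (SE; unadjusted p = 0.032, adjusted p = 0.61, and 0.18 with the block, limma), at a level where values are compressed.

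Kif11, the motor that pushes spindle poles apart, read 9.33, 9.52 and 9.35 in knockout organoids and 9.26, 9.22 and 9.29 in control organoids. All knockout values exceeded all control values, by a difference of 0.14 ± 0.06 (SE; unadjusted p = 0.045, adjusted p = 0.68, limma). Knockout replicate 2 stood highest. Cenpa, the histone variant of centromeres, read 13.10, 13.01 and 12.98 in knockout and 13.11, 13.18 and 12.98 in control organoids, so the groups overlapped and the arrays of replicate 3 were equal. Top2a, which untangles sister chromosomes, differed by 0.05 ± 0.08 (SE) and Kif23, a motor of cytokinesis, by 0.05 ± 0.09 (SE).

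**Figure D3:**
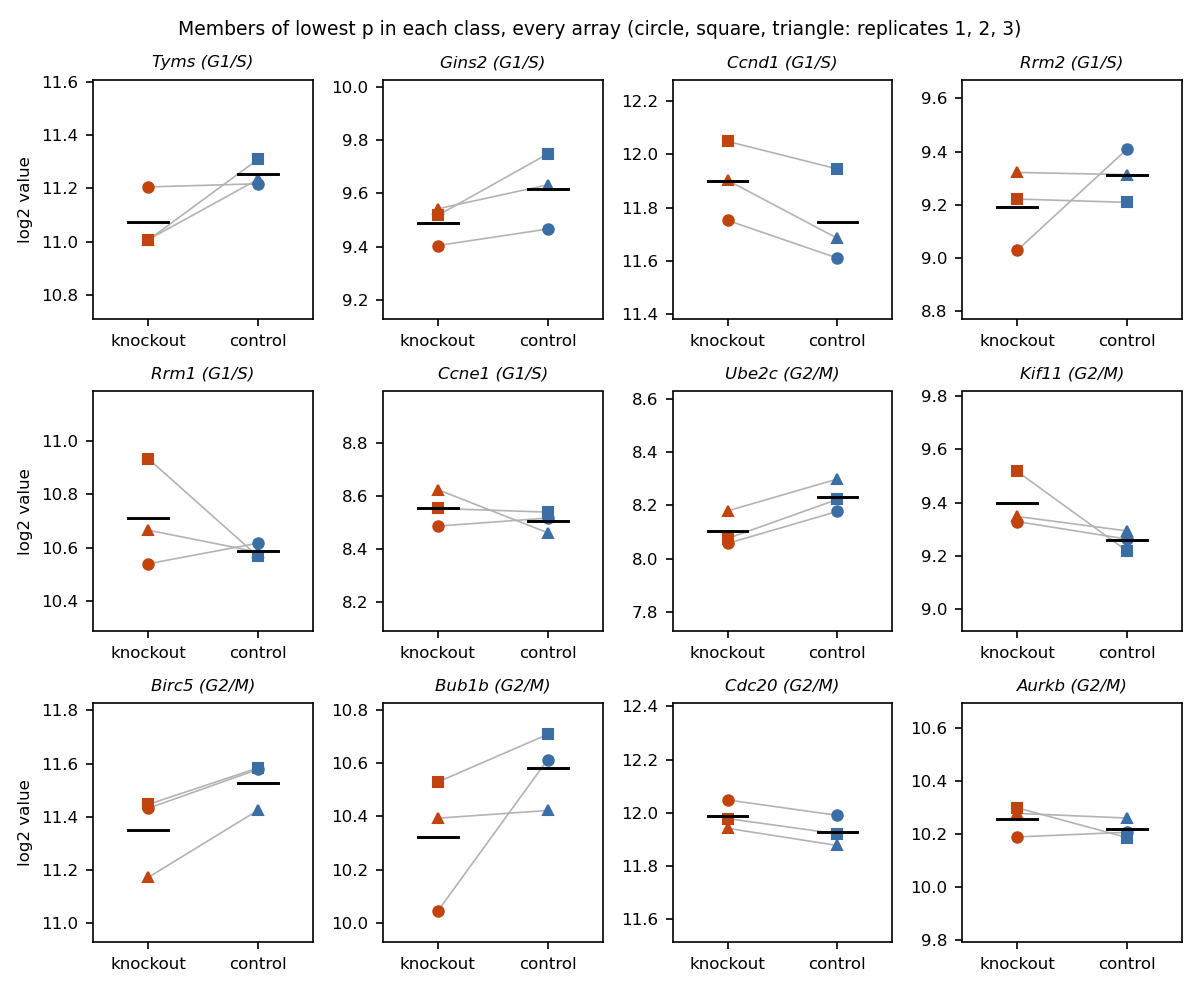
Log2 value (y axis) on each array for the 6 members of lowest p in the G1/S class and the 6 in the G2/M class, knockout left and control right, with bars at the group means and grey lines joining arrays of the same replicate number. Each panel spans the same height of 0.90 on the log2 scale, and only Tyms and Kif11 have groups that do not overlap.

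The G1/S class was compared with the G2/M class without a test, since its members were chosen. The median difference was -0.0027 for the 18 measured G2/M members, with 8 higher and 10 lower, and 0.016 for the 19 G1/S members, with 11 higher and 8 lower. The median of the absolute differences was 0.042 in G2/M and 0.043 in G1/S members. Within pairs, the G2/M median was -0.017 in replicate 1, -0.0038 in replicate 2 and -0.0080 in replicate 3. The G1/S median was -0.028 in replicate 1, -0.020 in replicate 2 and 0.053 in replicate 3. Of the 18 G2/M members, 5 were higher in the knockout in pair 1, 9 in pair 2 and 8 in pair 3. Of the 19 G1/S members, 7 were higher in pair 1, 8 in pair 2 and 14 in pair 3, against 48.8% to 50.9% of all genes. The class that stood higher thus differed between pairs. Leaving out the D cyclins, Cdk2, Cdk4 and Cdk6, which change little through the cycle or are set by outside signals, moved the G1/S median to -0.018. Among the 12 measured members with both the CHR and CCAAT letters, 5 were higher and 7 lower, with a median of -0.0044. Among the 5 with E2F letters, 1 was higher and 4 lower, with a median of -0.043.

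**Figure D4:**
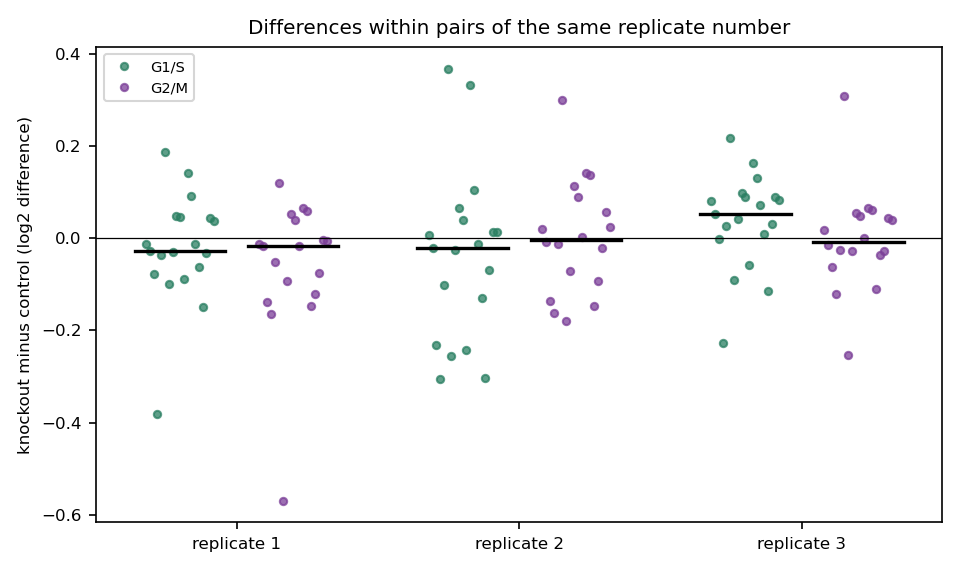
Knockout minus control difference (y axis, log2) of each G1/S and G2/M member within the pair of arrays that share a replicate number (x axis), with black bars at the class medians. The medians lie between -0.028 and 0.053, and single members spread far wider than the gap between the classes.

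Across all genes, arrays of the same number resembled each other. Of the 41 members, 10 kept 1 direction in 3 of 3 pairs, against 30.7% of all genes (15.7% higher and 15.1% lower). Higher in this sense were Ccnd1, Cdkn1b, Cdc20 and Kif11, and lower were Gins2, Tyms, Tk1, Bub1b, Birc5 and Ube2c. With the replicate number as a block, the median standard error was 0.042 instead of 0.062, and 7 members had an unadjusted p under 0.05, against 10.9% of all genes. With the block, 0 members passed the adjusted threshold, as did 0.0472% of all genes, and the lowest blocked adjusted p was 0.18 (limma), that of Ube2c.

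Several members were seen by more than 1 probe, which gives a second reading of the same RNA rather than a replicate. Of 92 probes for the 41 members, 0 passed over all 45281 probes, where 0.0883% did, and 58 were brighter than the upper quartile. At an unadjusted p under 0.05 there were 11 of the 92, against 6.23% of all probes. Of these 58, 8 had an unadjusted p under 0.05 and 7 had groups that did not overlap, against 15.3% and 14.7% of all probes that bright. With 2 or more such probes, 3 members were higher on every one (Foxm1, Kif23 and Rrm1), 5 were lower on every one (Birc5, Cdkn2c, Gins2, Rrm2 and Tyms) and 9 were mixed. The 3 probes of Gins2 differed by -0.13, -0.20 and -0.11. Its second probe, ILMN_1246270, read 9.34, 9.41 and 9.33 in knockout and 9.46, 9.58 and 9.63 in control organoids, without overlap (unadjusted p = 0.0055, adjusted p = 0.45 over all probes, limma). The 3 probes of Birc5 differed by -0.18, -0.12 and -0.14. The second bright probe of Tyms, ILMN_1247173, differed by -0.11 with overlapping groups (unadjusted p = 0.28, limma). The dim probes of Tyms differed by -0.05, 0.02 and 0.06. The brighter 2 of Rrm1 differed by 0.12 and 0.26, while the brighter 2 of Rrm2 differed by -0.12 and -0.11. On the second of these probes the groups of Rrm1 did not overlap (limma unadjusted p = 0.043, adjusted p = 0.78). Rrm2 was lower there in every pair, with overlapping groups (limma unadjusted p = 0.039, adjusted p = 0.76). For Ccnd1 the 3 probes disagreed, at 0.15, -0.05 and 0.24, as did the 4 of Cdc20.

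**Figure D5:**
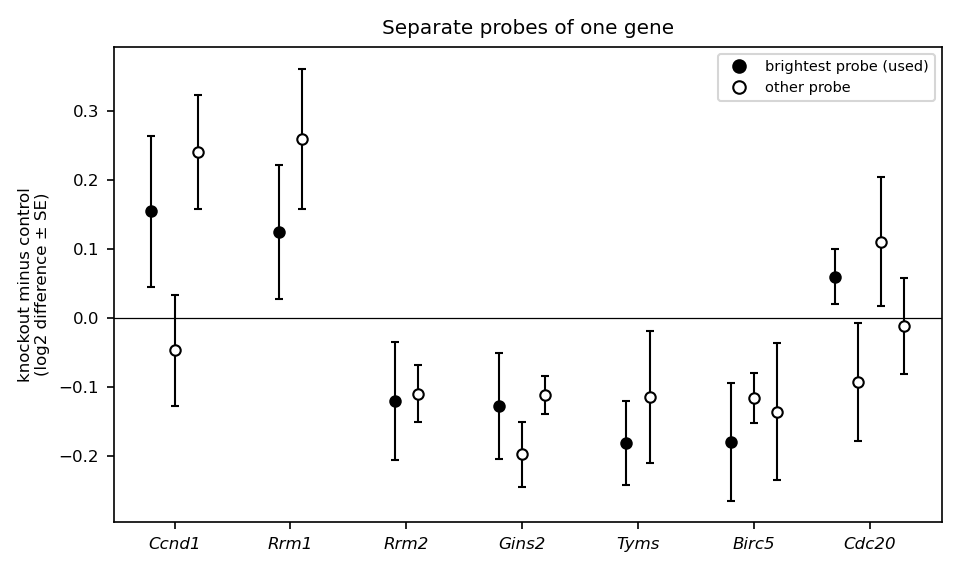
Knockout minus control difference (y axis, log2, with its standard error) of every probe above the upper quartile for 7 members (x axis), the filled point being the probe used elsewhere. All probes of Gins2, Tyms, Birc5 and Rrm2 lie below 0 and both of Rrm1 above it, while those of Ccnd1 and Cdc20 lie on both sides.

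Other genes of the same phases were listed without any member or Mcm gene. Of 40 other G1/S genes measured, none passed, 14 were higher and 26 lower, with a median difference of -0.013. Of 49 other G2/M genes, 1 passed, as higher in the knockout. By their means, 34 were higher and 15 lower, with a median of 0.027. Over all genes, 0.131% passed and 49.3% had a higher mean in the knockout. The G2/M gene that passed was Ckap2, a microtubule-associated gene. It read 9.10 ± 0.0054 in knockout and 8.89 ± 0.018 in control organoids (SD, n = 3 each), a difference of 0.21 ± 0.02 (SE; limma adjusted p = 0.034). This call was lost with the block (adjusted p = 0.13) and without any 1 of the 6 arrays. Gtse1, a microtubule regulator of G2, differed by 0.32 ± 0.09 (SE; limma adjusted p = 0.47) and Prc1, a bundler of the central spindle, by 0.14 ± 0.05 (adjusted p = 0.66). Among G1/S genes, Fen1, a nuclease of DNA replication, differed by 0.10, Atad2 by 0.13 and the licensing inhibitor gene Gmnn by -0.09, the last 2 at dim levels.

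Markers of the organoid's cells were read beside these genes. Of 12 epithelial markers, 11 were above the upper quartile, while none of 9 fibroblast, 7 immune and 6 endothelial markers was. Crypt base stem cell markers had 11 of 12 members higher in the knockout, against 49.3% of all genes. Of the 12, 4 lay below the upper quartile. Their summed linear level was 25104, 28875 and 31497 in knockout and 23609, 28083 and 23042 in control organoids. It was higher in 3 of 3 pairs with overlapping groups. This sum mostly reads the brightest marker, Slc12a2, with means of 14.02 in knockout and 13.82 in control organoids (log2). The median difference of the 12 markers was 0.039 in pair 1, 0.067 in pair 2 and 0.20 in pair 3. Enterocyte markers, which mark cells that have left the cycle, had 10 of 12 members lower, against 9664 of 19057 genes. Among the lower ones, Fabp1, Fabp2 and Slc15a1 lay below the upper quartile, and Sis differed by only -0.00066. Lct and Slc5a1 were higher, by 0.22 and 0.19. The sum of the enterocyte markers was 54883, 47968 and 55485 in knockout and 58782, 49187 and 59774 in control organoids. It was lower in 3 of 3 pairs with overlapping groups. Enteroendocrine markers, which mark hormone-secreting cells, had 5 of 8 members lower, near the share of all genes, and a median difference of -0.12. Neurog3, Neurod1 and Tac1 were higher, by 0.07, 0.02 and 0.0043. The sum of the enteroendocrine markers was 6045, 5771 and 6367 in knockout and 6429, 6304 and 6802 in control organoids. It was again lower in 3 of 3 pairs with overlapping groups. The median difference was -0.014 for 6 Paneth cell markers and -0.013 for 8 goblet cell markers.

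No marker of these lists passed over all genes in limma, with or without the block. With the block, 4 stem cell markers were higher and 2 enterocyte and 5 enteroendocrine markers lower at an unadjusted p under 0.05 (limma). By the same rule, 2 epithelial and 2 goblet cell markers were higher and 1 Paneth cell marker lower. Over all genes the share was 10.9%. The lowest blocked adjusted p among them was 0.069, for Lgr5, a receptor of crypt base stem cells (limma). The part of these values in those of the cell cycle genes was not tested.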

How the data were processed

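The deposited values are the authors' processed log values for 45281 probes on 6 arrays, taken here as log2. After sorting, no value differed between arrays by more than 0.0019, so the distributions had been equalised before deposit. Per the labels' protocols, the RNA was made into biotin-labelled cRNA. The sources used here do not give the background correction, software or log base, and folds assume base 2. Probes were named through the platform annotation, which gave 34885 probes 1 gene and 18 several. The other 10378 are unnamed here. Each gene was represented by its probe of highest mean over the 6 arrays, with no filter.

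The knockout minus control difference was fitted per gene in limma 3.58.1 under R 4.3.3 (linear model, moderated by eBayes without a trend), with p adjusted by Benjamini-Hochberg over 19057 genes at 0.05, without a block. Across all genes, the deviations of same-numbered arrays correlated at 0.35, 0.33 and 0.46 for numbers 1, 2 and 3, so the numbers were taken to pair the arrays and a blocked fit is an alternative. The labels do not say what a number shares. Figures were drawn with matplotlib 3.10.9.

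Members, classes and lists were chosen with earlier results of these data known. Values in every array are given for the brakes, for the 6 members of lowest p and for the 2 of highest level in each class. The 3 other cell cycle genes of lowest p per list are named.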

Additional observations from a re-analysis of the deposited data

How the results depend on the processing

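None of the members passed the adjusted threshold of limma in any of 13 alternative settings, and the lowest adjusted p of any member was 0.15, for Tyms. The count of members at an unadjusted p under 0.05, which was 3, was 7 with the replicate block (against 10.9% of all genes), 5 with a mean over each gene's probes (7.39%) and 1 among genes above the upper quartile (9.48%). It was 1 to 4 when 1 array was left out. The count of members with groups that do not overlap was 4 to 8 when 1 array was left out, against 19.9% to 24.4% of all genes, since fewer arrays separate more easily. Over all genes the adjusted count, 25 as fitted, was 9 with the block, 41 among genes above the upper quartile, 71 with a variance trend and robust fit, and 4 to 23 without 1 array.

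The median difference of G1/S members was -0.023 to 0.040 and that of G2/M members -0.013 to 0.018 when 1 array was left out. The gap between them was -0.041 to 0.016 there, and 0.016 without the D cyclins, Cdk2, Cdk4 and Cdk6, so its sign was not stable. Against the SD over the 3 pairs, the moves were smaller for G1/S (0.045) and for the gap (0.043). For G2/M (0.0070) the moves were larger without knockout replicate 1, knockout replicate 2 or control replicate 1. The G2/M median itself was then 0.018, -0.013 and -0.013. Of the 41 members, 20 kept their sign in every setting that could test them. The single other cell cycle gene that passed, Ckap2, was lost with the block, cyclic loess, the filter on dim genes and the variance trend, where the count was 0, and also 0 without any 1 array. The causes were not tested. Compression at low signal limits what 9 dim members can show.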
